A study of Mus musculus with 9 samples.

Results

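*Otx2*, *Fgf5*, *Pou3f1*, *Tcf15*, *Lef1* and *Zic2* are markers of the step by which naive pluripotent cells become formative and then primed epiblast. These 6 genes were taken by symbol from 55471 genes of a count table of mouse embryoid bodies (EBs), which are clusters of cells grown from embryonic stem cells (ESCs) to let them differentiate. They are listed by name, with no threshold on measured values, and the list was drawn up with earlier results of these data known. All 6 genes were expressed and passed the filter on low counts in every comparison.

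The study asked whether loss of *Tnfaip2*, a relative of an exocyst subunit, impairs differentiation of ESCs, and whether a fatty acid supplement restores it. The 9 libraries formed 3 groups of 3 biological replicates, which for KO and KO_PAPC the study describes as independent pools of EBs. WT EBs came from the parental E14 ESC line. KO EBs came from 1 CRISPR/Cas9 clone of that line, *Tnfaip2*-/-, with a frameshift and an early stop codon in exon 2, so the knockout and the clone cannot be told apart. The study describes the KO EBs set against KO_PAPC as vehicle-treated. KO_PAPC EBs were KO EBs of the same clone that were given both palmitic acid and palmitoyl-L-carnitine (together PA/PC), 8 µM of each. The study's methods give PA/PC both while EBs formed and during differentiation. With PA/PC, EBs are described as formed in the medium used for differentiation. For EBs in general, ESC medium is named for this step. As described, PA/PC and the medium of EB formation therefore cannot be told apart. PA/PC given to WT EBs was not analysed here. All EBs were made in hanging drops of 1000 cells and were collected 3 days after differentiation was induced. *Tnfaip2* gave no check of the labels, since it was near the floor in WT (16, 6 and 10 counts), in KO (5, 6 and 8) and in KO_PAPC (25, 14 and 16), and directions are therefore those of the libraries labelled KO and KO_PAPC.

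ESCs correspond to the naive epiblast of the blastocyst. After implantation the epiblast leaves this state under FGF/ERK signalling, passes a formative state in which it becomes competent to form germ layers and germ cells, and reaches a primed state close to gastrulation. *Otx2* encodes a homeodomain transcription factor that redirects OCT4 to new enhancers during this exit, and *Pou3f1* encodes the POU factor OCT6, which appears with it. *Fgf5* encodes a secreted ligand and is the classical marker of the post-implantation epiblast. *Tcf15* encodes a bHLH factor that marks early priming in ESC culture and acts later in somites, *Lef1* encodes an HMG-box partner of β-catenin in Wnt signalling, and *Zic2* encodes a zinc finger factor of the primed epiblast and the neural plate.

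Promoter sequence of RefSeq (GRCm38.p6, from 250 bases before to 50 bases after a transcription start) was at hand for 3 of the 6 genes. It is shown because the same windows held letters read by the proteins of the set itself. One window each is printed 5′ to 3′ on the strand of the gene. For *Fgf5* it is the only window, for *Lef1* the first of 4, whose start lies before that of the gene in GENCODE, and for *Otx2* the 1 of 4 that held a TAATCC, so that choice followed the search. Capitals mark CTTTG (the core of TCF/LEF sites), CAGCAGG (a ZIC site) and TAATCC (an OTX site), on either strand.
*Lef1*, chr3:131110047-131110346, plus strand: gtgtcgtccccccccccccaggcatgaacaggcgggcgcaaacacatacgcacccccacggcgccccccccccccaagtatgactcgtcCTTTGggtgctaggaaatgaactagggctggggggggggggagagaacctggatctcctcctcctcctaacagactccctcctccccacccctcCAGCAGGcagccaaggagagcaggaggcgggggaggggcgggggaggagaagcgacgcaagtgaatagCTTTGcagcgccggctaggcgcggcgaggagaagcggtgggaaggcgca
*Fgf5*, chr5:98253934-98254233, plus strand: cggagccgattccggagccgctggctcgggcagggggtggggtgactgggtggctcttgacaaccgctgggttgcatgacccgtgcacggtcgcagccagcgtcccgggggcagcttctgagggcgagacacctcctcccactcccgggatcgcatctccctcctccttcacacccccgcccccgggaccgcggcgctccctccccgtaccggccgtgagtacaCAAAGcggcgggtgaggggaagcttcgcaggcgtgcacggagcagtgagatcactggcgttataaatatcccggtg
*Otx2*, chr14:48665060-48665359, minus strand: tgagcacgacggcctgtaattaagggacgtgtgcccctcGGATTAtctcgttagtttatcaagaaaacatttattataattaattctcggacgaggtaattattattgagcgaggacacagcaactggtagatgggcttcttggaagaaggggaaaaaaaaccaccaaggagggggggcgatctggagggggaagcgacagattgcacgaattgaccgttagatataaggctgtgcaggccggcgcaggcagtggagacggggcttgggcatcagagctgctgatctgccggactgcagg
The *Lef1* window held 2 CTTTG and 1 CAGCAGG, the *Fgf5* window 1 CTTTG on the other strand, and the *Otx2* window 1 TAATCC on the other strand. Of 32544 promoter windows of this length, 54% held a CTTTG, 10.5% a CAGCAGG and 7.06% a TAATCC. The longer TCF/LEF word CTTTGATC, which contains CTTTG, was found in 0.934% of windows and the octamer ATGCAAAT in 1.75%, and neither stood in the 3 printed windows. The E-box CANNTG, found in 72.3% of windows, was counted but not marked. The *Fgf5* window held 29 CpG, the *Lef1* window 18 and the *Otx2* window 16, where the median of all windows was 7. The other *Otx2* windows held 6, 8 and 11 CpG and the other *Lef1* windows 21, 8 and 5, so that the printed *Otx2* window was the richest of its 4. A match describes these letters and is not a measured binding site.

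Depth was even, with 27362913 to 28914312 counts per library. Levels are given as counts scaled to a library total of 1000000 (CPM, mean ± SD, n = 3). Differences are log2 fold changes ± SE of edgeR's quasi-likelihood test with TMM scaling, and a gene was called at a Benjamini-Hochberg adjusted p under 0.05 over all genes tested. Replicates lay close together, with a biological coefficient of variation of 2.09% to 2.65% over all genes, so calls were the rule: 73.8% of 17355 genes were called between KO and WT (36.8% higher and 37.1% lower in KO), 81.8% of 17167 between KO_PAPC and KO (39.6% higher and 42.2% lower in KO_PAPC), and 70.6% of 16655 between KO_PAPC and WT (34.2% higher and 36.4% lower in KO_PAPC). A call alone therefore says little about these 6 genes, and their sizes and order are given beside it. Each group enters a pair of these comparisons, so the 3 comparisons share libraries and are not independent. Mitochondrial genes took 1.26% to 1.34% of counts in KO_PAPC, 1.85% to 1.87% in WT and 1.96% to 1.98% in KO. TMM scaling moved the KO_PAPC libraries against the other groups: with library totals in its place the median over all genes shifted by -0.17 on the log2 scale in both comparisons with KO_PAPC.

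*Otx2*, *Fgf5*, *Pou3f1* and *Zic2* were lowest in KO, intermediate in WT and highest in KO_PAPC, with all 3 differences called. *Lef1* was not called between KO and WT and was 4.34-fold higher in KO_PAPC than in WT. *Tcf15* differed little between groups, and its sign depended on scaling. The order KO below WT below KO_PAPC with all 3 calls was seen in 16.4% of 16174 genes tested in all comparisons and in 4 of the 6 genes described here. The *Lef1* pattern, no call between KO and WT and KO_PAPC above both, was seen in 7.15% of those genes. These are counts of RNA from whole EBs, in which fewer cells of a type and less RNA per cell cannot be told apart.

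**Figure D1:**
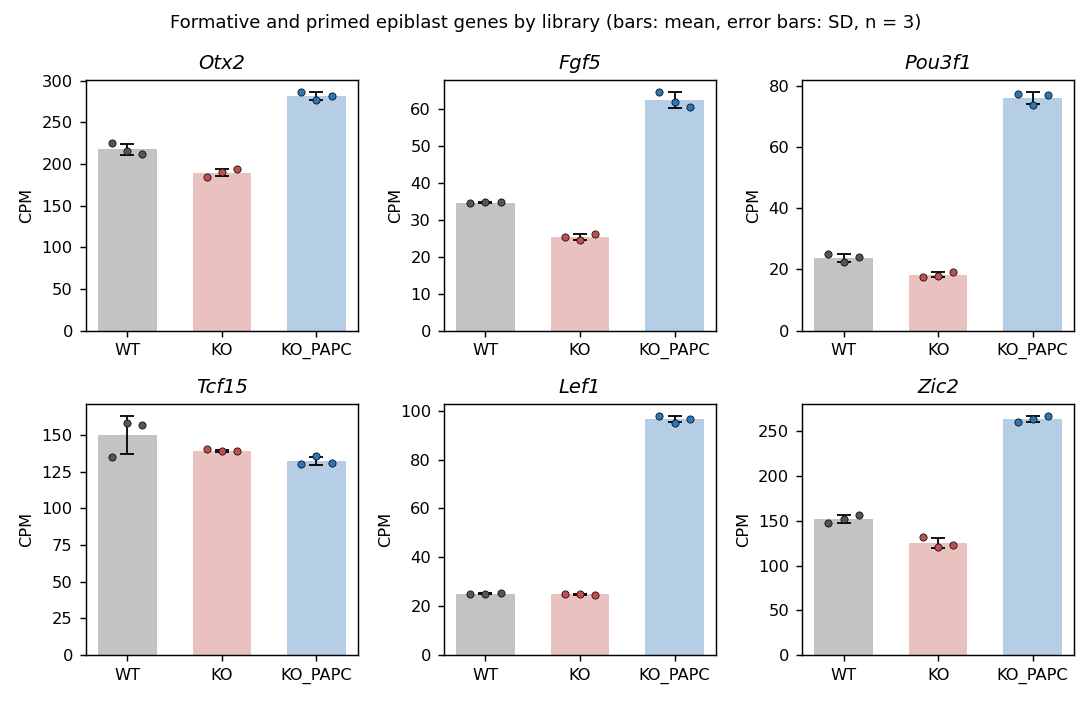
Expression of the 6 genes in CPM (vertical axis, starting at 0, own scale for each gene) in WT, KO and KO_PAPC EBs; points are libraries, bars group means and error bars SD (n = 3). The KO_PAPC libraries stood above all others for 5 genes, and for *Tcf15* they lay at 131 to 136 CPM, below the KO libraries and overlapping WT.

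*Otx2* (ENSMUSG00000021848, GRCm38 chromosome 14, 48657677 to 48673819, minus strand) had 225, 216 and 213 CPM in WT EBs, 185, 191 and 194 in KO EBs and 287, 277 and 282 in KO_PAPC EBs. No library of one group reached into another. The means were 218 ± 6.43, 189.7 ± 4.52 and 282 ± 5.18 CPM. *Otx2* fell by 0.20 ± 0.0266 on the log2 scale from WT to KO (edgeR adjusted p = 4.67e-08), the smallest of the 4 falls with separate groups. It rose by 0.74 ± 0.0273 in KO_PAPC versus KO (adjusted p = 5.75e-24) and by 0.54 ± 0.0300 in KO_PAPC versus WT (adjusted p = 4.15e-14). It was the smallest rise among the 5 genes that rose against WT. The antisense gene *Otx2os1*, which shares exon bases with *Otx2*, held only 24 to 26 counts in WT, 14 to 19 in KO and 10 to 17 in KO_PAPC against 5279 or more for *Otx2*.

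*Pou3f1* (ENSMUSG00000090125, chromosome 4, 124656807 to 124660655, plus strand) is a gene of 1 exon of 3849 bases. It had 24.9, 22.3 and 24.1 CPM in WT EBs, 17.5, 18.0 and 19.3 in KO EBs and 77.4, 73.7 and 76.9 in KO_PAPC EBs. All KO libraries were below all WT libraries, and all KO_PAPC libraries were far above both. The means were 23.7 ± 1.35, 18.3 ± 0.900 and 76.0 ± 1.99 CPM. Its log2 fold changes were -0.38 ± 0.0562 between KO and WT (edgeR adjusted p = 3.10e-07), 2.22 ± 0.0450 in KO_PAPC versus KO (adjusted p = 3.47e-32) and 1.84 ± 0.0454 in KO_PAPC versus WT (adjusted p = 3.13e-21). In KO_PAPC versus KO this was the largest of the 6 differences, a 4.67-fold rise that exceeded 98.4% of all signed differences. Of its exon bases 8.57% overlap the antisense gene *Gm2164*, which held 7 counts or fewer in every library.

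*Fgf5* (ENSMUSG00000029337, chromosome 5, 98254184 to 98277030, plus strand) had 34.5, 34.7 and 34.7 CPM in WT EBs, 25.3, 24.6 and 26.1 in KO EBs and 64.6, 61.9 and 60.6 in KO_PAPC EBs. The WT libraries were nearly equal, with a coefficient of variation of 0.371% where counting alone would give 3.22%, and the groups did not overlap. From 34.6 ± 0.129 CPM in WT the mean went to 25.3 ± 0.779 in KO, the largest fall of the set at -0.45 ± 0.0458 (edgeR adjusted p = 1.10e-10). In KO_PAPC it was 62.4 ± 2.06 CPM, with a log2 fold change of 1.47 ± 0.0435 against KO (adjusted p = 5.78e-27) and 1.01 ± 0.0411 against WT (adjusted p = 7.03e-17).

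*Zic2* (ENSMUSG00000061524, chromosome 14, 122475435 to 122479852, plus strand) had 147, 153 and 156 CPM in WT EBs, 132, 121 and 123 in KO EBs and 261, 264 and 267 in KO_PAPC EBs. Again the groups were separate. The means of 152 ± 4.67, 125 ± 5.70 and 264 ± 3.10 CPM corresponded to a log2 fold change of -0.28 ± 0.0311 between KO and WT (edgeR adjusted p = 1.02e-09), 1.24 ± 0.0301 in KO_PAPC versus KO (adjusted p = 1.02e-29) and 0.96 ± 0.0299 in KO_PAPC versus WT (adjusted p = 3.51e-19). Its neighbour *Zic5*, a zinc finger gene on the other strand at a distance of 9757 bases, had another order. *Zic5* was slightly higher in KO (log2 fold change 0.13, edgeR adjusted p = 0.00329) and also rose in KO_PAPC versus WT (0.93, adjusted p = 1.71e-15).

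*Lef1* (ENSMUSG00000027985, chromosome 3, 131110471 to 131224356, plus strand) had 24.9, 24.8 and 25.2 CPM in WT and 24.8, 25.1 and 24.4 in KO, so WT and KO overlapped. KO_PAPC libraries had 97.7, 95.2 and 96.7 CPM. Between KO and WT the log2 fold change was -0.0094, with a 95% confidence interval of -0.108 to 0.0892 (edgeR adjusted p = 0.869). *Lef1* rose by 2.13 ± 0.0392 in KO_PAPC versus KO (adjusted p = 1.77e-33) and by 2.12 ± 0.0395, or 4.34-fold, in KO_PAPC versus WT (adjusted p = 1.17e-23). Against WT it was the largest difference of the 6 and exceeded 99.7% of all signed differences. The antisense gene *Gm43352* overlaps 13.75% of the *Lef1* exon bases. It also had more counts in KO_PAPC, 12 to 17 per library against 1 to 5 in the other groups, beside 2604 or more counts of *Lef1*. Without strand information reads over the shared bases cannot be told apart, and such reads were left out of the counts.

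*Tcf15* (ENSMUSG00000068079, chromosome 2, 152143561 to 152149097, plus strand) had 135, 158 and 157 CPM in WT EBs, 140.3, 139 and 139 in KO EBs and 131, 136 and 131 in KO_PAPC EBs. WT replicate 1 stood below both other WT libraries and below every KO library, so WT overlapped both other groups. The means were 150.1 ± 12.9, 139.5 ± 0.696 and 132 ± 2.92 CPM. The coefficient of variation of 8.62% in WT was the largest of any gene and group of the set.

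In edgeR, *Tcf15* was called lower in KO than in WT by a log2 fold change of -0.10 ± 0.0368 (adjusted p = 0.0114). This call was lost in DESeq2 (adjusted p = 0.214) and without WT replicate 2, WT replicate 3 or KO replicate 2 (edgeR adjusted p = 0.0811, 0.0982 and 0.0574), while without WT replicate 1 the difference was -0.18. In KO_PAPC versus KO the sign depended on scaling: the log2 fold change was 0.09 ± 0.0293 with TMM (adjusted p = 0.00551) and -0.077 with library totals (adjusted p = 0.0169). In KO_PAPC versus WT *Tcf15* was not called (-0.017, 95% confidence interval -0.104 to 0.0707, adjusted p = 0.737), but was lower with library totals (-0.18, adjusted p = 0.000564) and without WT replicate 1 (-0.085, adjusted p = 0.0261). No direction is therefore given for *Tcf15*.

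**Figure D2:**
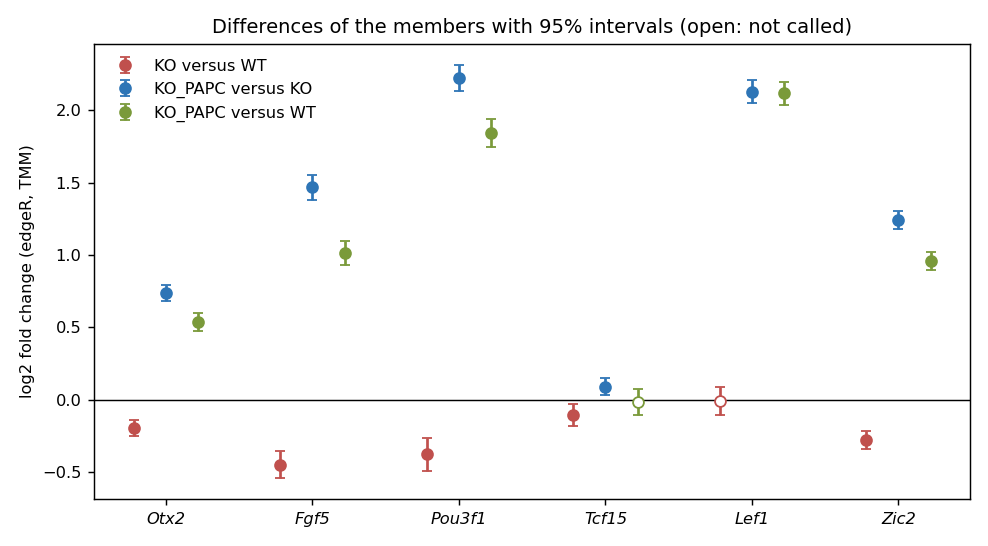
Log2 fold change (vertical axis, edgeR with TMM scaling) of each gene for the 3 comparisons, with 95% confidence intervals; open circles were not called. The falls in KO were all within -0.45, whereas *Pou3f1* and *Lef1* rose by more than 1.8 in both comparisons with KO_PAPC and *Tcf15* stayed near 0.

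Set side by side, the differences between KO and WT were small. Those with KO_PAPC were larger for *Pou3f1*, *Lef1*, *Fgf5*, *Zic2* and, less so, *Otx2*, while *Tcf15* stayed near 0. In KO versus WT, 5 of the 6 genes were called lower and 0 higher, *Tcf15* included, where 37.1% of all genes were called lower. Their median was -0.24, against -0.0059 for all genes, and 4 of the 6 had groups that did not overlap in CPM, as had 75.2% of all genes. None fell as far as 2-fold, which 6.9% of all genes did. In KO_PAPC versus KO all 6 were called higher with TMM scaling and 5 with library totals, where *Tcf15* was lower and 39.6% of all genes were called higher with TMM. The median was 1.35, against -0.017 for all genes. *Pou3f1*, *Lef1*, *Fgf5* and *Zic2* were called and at least 2-fold higher, as were 9.4% of all genes. In KO_PAPC versus WT, 5 of 6 were called higher, where 34.2% of all genes were, with a median of 0.99 against -0.017. *Pou3f1*, *Lef1* and *Fgf5* were called and at least 2-fold higher than in WT, as were 2.25% of all genes, but with library totals the log2 fold change of *Fgf5* was 0.85 and so under 2-fold. Groups did not overlap for all 6 genes between KO_PAPC and KO, where 82.1% of all genes did not, and for 5 between KO_PAPC and WT, where 73% did not. For *Tcf15* the KO_PAPC libraries lay below the KO libraries in CPM, opposite to its call with TMM scaling.

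The geometric mean of the 6 genes was 68.3 to 70.0 CPM in WT libraries, 58.1 to 59.4 in KO and 128 to 130.4 in KO_PAPC. The levels of different genes were compared per exon length, as CPM divided by the exon length in kilobases (RPKM). *Tcf15* had the highest level in every group, at 153 ± 13.2 RPKM in WT, 142 ± 0.710 in KO and 135 ± 2.98 in KO_PAPC. In WT, *Zic2* (52.8 ± 1.62 RPKM) and *Otx2* (51.6 ± 1.52) came next and differed by less than their spread, and in KO they exchanged places at 43.5 ± 1.98 and 44.9 ± 1.07, again within the spread. In KO_PAPC, *Zic2* at 91.7 ± 1.08 RPKM stood above *Otx2* at 66.7 ± 1.23.

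*Fgf5*, *Pou3f1* and *Lef1* followed in that order in all groups, each separated from the next by more than its spread. *Fgf5* had 13.8 ± 0.0514 RPKM in WT, 10.1 ± 0.312 in KO and 24.9 ± 0.825 in KO_PAPC. *Pou3f1* had 6.17 ± 0.351, 4.74 ± 0.234 and 19.8 ± 0.516 RPKM. *Lef1* was lowest, with 2.84 ± 0.0233 RPKM in WT and 2.82 ± 0.0385 in KO, above 42.2% and 42.4% of genes with a mean of at least 10 counts, and with 11.0 ± 0.147 in KO_PAPC it was above 71.3% of them. The distance between the lowest and the highest gene of the set was therefore smaller in KO_PAPC than in WT or KO.

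**Figure D3:**
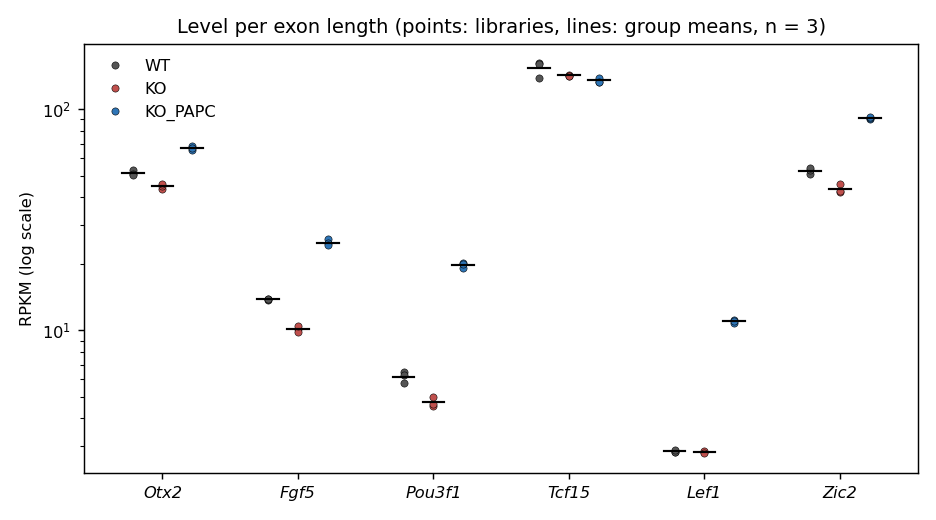
Level per exon length in RPKM (vertical axis, log scale) of the 6 genes; points are libraries and lines group means (n = 3). *Tcf15* is highest in every group, *Zic2* and *Otx2* exchange places between WT and KO within their spread, and *Lef1* rises from 2.84 to 11.0 RPKM.

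The genes whose pattern lay closest to each of the 6 were sought by the root mean square difference of centred log2(CPM + 0.5) values over the 9 libraries, among 9791 genes that averaged at least 10 CPM. For *Otx2* these were *Utp11* (a difference of 0.0135), *Pum2* and *Ints10*. For *Zic2* they were *Tead2* (0.0561), *Scd2* and *Prps2*, and for *Fgf5* *Nsun2* (0.0483), *Adk* and *Rpl13a*, of which only 1 stayed among the closest with a pseudocount of 2. For *Pou3f1* they were *Dnmt3b* (0.0936), *Myb* and *Socs3*, and for *Tcf15* *AU022252* (0.0332), *Fbxl19* and *Auh*. *Dnmt3b*, which encodes a de novo DNA methyltransferase, went from 218 ± 3.29 CPM in WT EBs to 149.9 ± 1.38 in KO EBs and 619 ± 10.1 in KO_PAPC.

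*Lef1* had *Gm23935* (0.139), *Egr1* and *Pou3f1* (0.163) as its closest genes, the only case in which a gene of the set was among the closest of another. *Egr1*, an immediate early transcription factor gene, stood at 25.5 ± 0.279 CPM in WT EBs, 20.7 ± 0.335 in KO EBs and 105 ± 2.75 in KO_PAPC EBs. Within the set, *Fgf5* and *Zic2* were closer still, with a difference of 0.104, but 22 other genes lay nearer to *Fgf5*.

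Other genes known to rise at the same step were counted in the same way. Of 16 such genes, 10 were lower and 6 higher in KO versus WT (median -0.61). In KO_PAPC versus KO 12 were higher and 4 lower (median 1.78), and 15 were higher and 1 lower in KO_PAPC versus WT (median 0.92; 14 higher and 1 lower with library totals). The order KO below WT below KO_PAPC, which *Otx2*, *Fgf5*, *Pou3f1* and *Zic2* had, was seen in 10 of the 16. *Fgf15*, which encodes another FGF ligand, fell most, by 2.23 ± 0.0436 on the log2 scale in KO, with 79.8 ± 2.31 CPM in WT and 17.0 ± 0.597 in KO, and reached 138 ± 3.67 CPM in KO_PAPC; 25.7% of its exon bases overlap other genes. *Sall2*, a zinc finger gene, went from 149.8 ± 1.55 CPM in WT EBs to 37.4 ± 1.37 in KO EBs and 221 ± 3.38 in KO_PAPC. *Pim2*, a serine/threonine kinase gene, went from 185 ± 3.65 to 53.1 ± 1.73 and 406 ± 2.23 CPM. *Grhl2*, a transcription factor gene of epithelial enhancers in the formative state, moved the other way, from 13.2 ± 0.718 CPM in WT EBs to 71.4 ± 1.45 in KO EBs and 18.9 ± 1.24 in KO_PAPC.

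Naive genes, which are shut down as the 6 genes come up, had the reverse order for the most part, with all 3 differences called in 9 of 12. No share over all genes is given beside this count. Of 12 naive genes 11 were higher and 1 lower in KO versus WT (median 0.96), all 12 were lower in KO_PAPC versus KO (median -1.28), and 10 were lower, 1 higher and 1 not called in KO_PAPC versus WT (median -0.55). Their geometric mean was 99.3 to 101 CPM in WT libraries, 187.7 to 188 in KO and 54.5 to 55.3 in KO_PAPC. *Nanog* stood at 385 ± 6.42 CPM in WT EBs, 778 ± 12.0 in KO EBs and 287 ± 6.96 in KO_PAPC EBs, and *Tfcp2l1*, a naive transcription factor gene, at 103 ± 1.02, 242 ± 3.99 and 34.2 ± 0.584 CPM. *Klf2* was the exception in KO_PAPC versus WT, where it was higher by 0.23 on the log2 scale (edgeR adjusted p = 1.68e-05), but with library totals 0 of the 12 were called higher. The core factor genes *Pou5f1* and *Sox2*, which mark both states, were expressed in all groups, with 684 ± 14.3 and 514 ± 3.57 CPM in WT. Of 3 core genes, *Sall4* being the other, 2 were called higher in KO versus WT and 1 was not called. *Sox2* rose by 0.56 ± 0.0201 (edgeR adjusted p = 9.90e-23), to 758 ± 5.31 CPM, and stood at 483 ± 5.11 CPM in KO_PAPC, while *Pou5f1* was the gene not called (log2 fold change 0.02, adjusted p = 0.304). In KO_PAPC versus KO 2 of the 3 core genes were higher and 1 lower. *Pou5f1* stood at 843 ± 23.3 CPM in KO_PAPC, higher than in KO (0.44, edgeR adjusted p = 1.33e-18) and in WT (0.47, adjusted p = 5.82e-14).

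**Figure D4:**
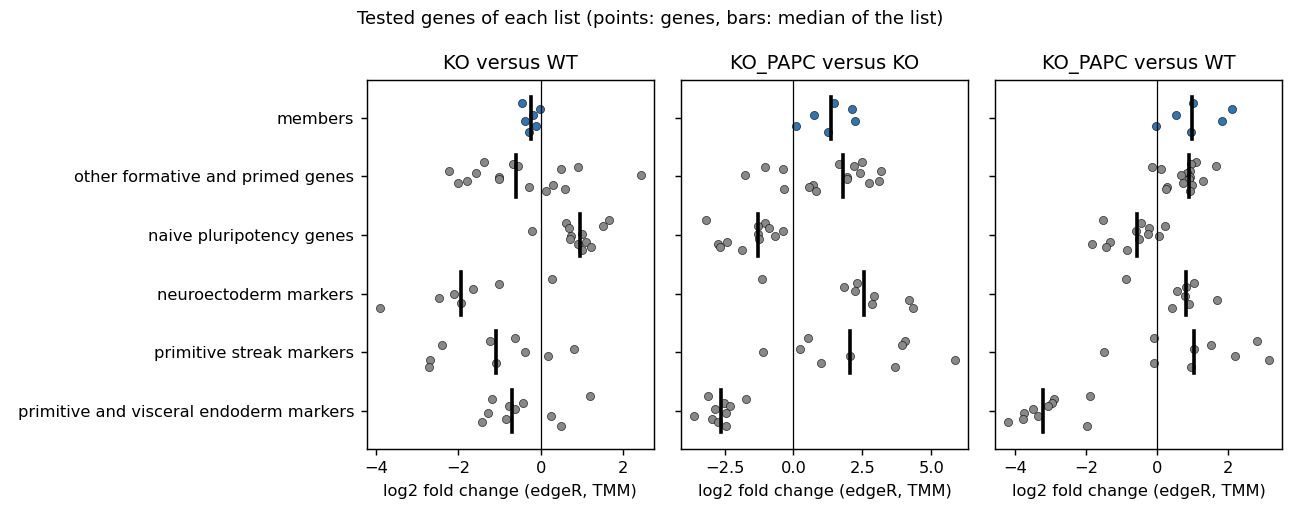
Log2 fold change (horizontal axis, edgeR with TMM scaling) of each tested gene of 6 lists in the 3 comparisons; points are genes and black bars list medians. The 6 genes described here spanned -0.45 to -0.0094 in KO versus WT and 0.09 to 2.22 in KO_PAPC versus KO, while the endoderm markers had a median of -2.64 in the latter.

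Relatives of the 6 genes did not all share their direction. Of 15 paralogs, 13 were tested between KO and WT, of which 4 were higher and 9 lower. In KO_PAPC versus KO 14 were tested, and 11 were higher, 2 lower and 1 not called (8 higher and 3 lower with library totals). Against WT, 6 of 13 were higher in KO_PAPC, 1 was lower and 6 were not called (5 higher and 3 lower with library totals). *Zic1*, used in the neural plate, had the order of *Zic2*, with 6.24 ± 0.438, 0.410 ± 0.0571 and 7.49 ± 0.381 CPM in WT, KO and KO_PAPC. The paralogs of *Otx2* were nearly silent, with *Otx1* at 28 counts or fewer in every library and *Crx* at 9 or fewer.

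Among the TCF/LEF paralogs of *Lef1*, *Tcf7l1*, the TCF that restrains Wnt targets in ESCs, fell by 0.63 ± 0.0358 on the log2 scale from WT to KO (edgeR adjusted p = 3.58e-17) and was at 119.7 ± 5.09, 77.2 ± 4.28 and 121 ± 1.04 CPM in WT, KO and KO_PAPC. *Tcf7* was higher in KO than in WT, by 0.32 ± 0.0296 (adjusted p = 8.01e-12), and stood at 113 ± 0.590 CPM in KO_PAPC. In KO_PAPC versus WT, where *Lef1* had a log2 fold change of 2.12, *Tcf7* had 0.53 ± 0.0321 (adjusted p = 1.78e-13) and *Tcf7l1* 0.18 ± 0.0337 (adjusted p = 3.39e-05).

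Of 9 Wnt response genes, counted with the β-catenin gene *Ctnnb1*, 8 were tested in each comparison. In KO versus WT 4 were higher and 4 lower, in KO_PAPC versus KO 3 were higher, 4 lower and 1 not called, and in KO_PAPC versus WT 5 were higher and 3 lower (3 higher and 4 lower with library totals). *Axin2*, a feedback gene used as a general Wnt readout, was at 13.7 ± 0.546 CPM in WT EBs, 23.9 ± 0.540 in KO EBs and 17.0 ± 0.291 in KO_PAPC EBs, and so did not follow *Lef1*. *Notum*, which encodes a Wnt-inactivating enzyme, fell by 2.97 ± 0.0624 on the log2 scale in KO_PAPC versus KO (edgeR adjusted p = 1.10e-31), although 38.1% of its exon bases overlap other genes. *Nkd1*, another feedback gene, rose by 1.56 ± 0.0735 in the same comparison (adjusted p = 1.01e-20).

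The genes downstream of FGF ligands were also mixed. Of 11 FGF receptor and ERK response genes, 4 were higher, 4 lower and 3 not called in KO versus WT, 6 rose and 5 fell in KO_PAPC versus KO, and KO_PAPC stood above WT for 7, below for 3 and was not called for 1 (above for 6 and below for 4 with library totals). *Fgfr1*, the main FGF receptor gene of the epiblast, and *Dusp6*, an ERK phosphatase induced by ERK itself, had the order of *Fgf5*. *Fgfr1* stood at 219 ± 2.90, 119 ± 1.36 and 251 ± 8.26 CPM in WT, KO and KO_PAPC, and *Dusp6* at 158 ± 1.72, 85.2 ± 0.848 and 207 ± 3.89. The ETS factor gene *Etv4* had the reverse order, at 39.1 ± 1.26, 73.1 ± 0.669 and 31.7 ± 0.980 CPM. *Fgf4*, the ligand that drives exit from the naive state, fell by 0.14 ± 0.0268 on the log2 scale from WT to KO (edgeR adjusted p = 3.13e-05) and was not called between KO_PAPC and WT with TMM scaling (-0.053, adjusted p = 0.161), although its CPM values, 201 ± 7.25 in WT and 173 ± 6.29 in KO_PAPC, did not overlap.

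Several of the 6 genes are also used outside the epiblast, and markers of those cells moved with the groups. *Otx2*, *Pou3f1* and *Zic2* are neural genes as well. The summed level of 9 neuroectoderm markers was 134 to 140.01 CPM in WT libraries, 40.3 to 43.6 in KO and 217 to 220.1 in KO_PAPC, the order of those genes. Of the markers tested, 6 of 7 were lower in KO versus WT and 7 of 8 higher in KO_PAPC versus WT, with *Sox1* at 71.7 ± 3.08, 18.5 ± 1.10 and 119.7 ± 0.540 CPM and *Pax6* at 23.8 ± 0.534, 5.49 ± 0.256 and 36.9 ± 0.350 CPM in WT, KO and KO_PAPC. *Neurog2* had 3 counts or fewer in KO and KO_PAPC. The part of neuroectoderm in the differences of *Otx2*, *Pou3f1* and *Zic2* was not tested.

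Primitive streak cells use *Lef1* and *Otx2*. The sum of 10 streak markers was 50.1 to 53.3 CPM in WT, 29.3 to 30.5 in KO and 73.7 to 77.0 in KO_PAPC. In KO versus WT 1 of 9 tested was higher, 6 lower and 2 not called, and in KO_PAPC versus KO 7 were higher, 1 lower and 1 not called. In KO_PAPC versus WT 6 were higher, 1 lower and 2 not called, *Eomes* among the latter (6 higher and 2 lower with library totals). *T* (brachyury) was at 1.91 ± 0.214 CPM in WT EBs, 0.292 ± 0.109 in KO EBs and 15.5 ± 1.15 in KO_PAPC EBs, and *Eomes* at 34.7 ± 1.45, 22.5 ± 0.242 and 29.1 ± 1.28. The part of streak cells in the *Lef1* and *Otx2* values was not tested.

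Visceral endoderm uses *Otx2* too. The 11 markers of primitive and visceral endoderm summed to 259 to 269 CPM in WT, 180.0 to 185 in KO and 27.0 to 28.3 in KO_PAPC. All 10 tested were lower in KO_PAPC than in KO and in WT. In KO versus WT 3 of the 10 were higher and 7 lower. The 3 higher ones, named after their values were seen, were *Afp*, *Ttr* and *Hnf4a*, genes of visceral endoderm, with log2 fold changes of 1.21 ± 0.0840, 0.50 ± 0.0730 and 0.26 ± 0.0777 (edgeR adjusted p = 7.69e-15, 1.98e-07 and 0.00331). *Amn*, also a gene of visceral endoderm, was among the 7 lower ones. It stood at 26.5 ± 1.80 CPM in WT EBs and 11.7 ± 0.286 in KO EBs (log2 fold change -1.18 ± 0.0605, edgeR adjusted p = 2.34e-18). *Afp* went from 4.75 ± 0.277 CPM in WT EBs to 11.0 ± 0.334 in KO EBs, and to 1.14 ± 0.204 in KO_PAPC EBs. *Dab2* alone made up 116 ± 3.46 CPM of the sum in WT and fell by 0.43 ± 0.0326 on the log2 scale in KO (adjusted p = 9.48e-14). *Gata6* was at 30.0 ± 1.01 CPM in WT EBs, 12.2 ± 0.776 in KO EBs and 2.00 ± 0.290 in KO_PAPC EBs. *Cer1* had 3 counts or fewer in WT. The part of endoderm in the *Otx2* values was not tested. Paraxial mesoderm, the tissue of later *Tcf15* use, was near the floor: its 7 markers summed to 3.00 to 3.37 CPM in WT, 2.73 to 3.28 in KO and 2.59 to 2.74 in KO_PAPC. In WT, *Meox2* and *Msgn1* had 3 counts or fewer in every library, as had *Uncx* in KO and *Meox2* and *Pax1* in KO_PAPC. The part of paraxial mesoderm in the *Tcf15* values was not tested.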

How the data were processed

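RNA of EBs was sequenced in 9 libraries, 3 each of WT, KO and KO_PAPC. The deposited values were whole-number read counts per Ensembl gene, not normalized. Per the labels, the authors sequenced unstranded libraries with 51 single-end cycles and used bcl2fastq 2.20.0.422, STAR 2.7.2b, featureCounts 1.6.5 and GRCm38. For the comparison of KO with WT the study's methods describe an earlier pipeline, but the WT columns share one table with the others. Multi-mapping reads and reads over more than 1 gene were left out of the counts, which lowers genes with overlapping or repeated exons.

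Symbols and positions were joined by Ensembl ID from GENCODE M21 (GRCm38), with 241 of 55471 IDs unmatched. Each comparison was fitted on its own 6 libraries with edgeR 4.0.16 (R 4.3.3), TMM size factors and filterByExpr, without covariates. SE were derived from the F statistic. The script was tested on simulated data. RPKM used the union of exons. All pairs of replicates differed by more than sampling noise, but libraries of 1 pool could do so too, so this does not show independent samples. Each was counted as 1 sample on the study's description. The study describes the KO and KO_PAPC replicates as independent pools of EBs and the WT replicates as biological, and p-values measure the spread between these samples of 1 line each.

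All 6 genes were described in full. From other lists, at most 4 genes of at least 10 CPM in a group, with the smallest adjusted p in KO versus WT, were named, besides paralogs, markers at the floor, *Ttr*, *Hnf4a* and *Dab2*, which were added after their values were seen, and the 3 genes closest in pattern to each of the 6. *Zic5* was named as neighbour of *Zic2*. The 6 genes and all lists were chosen with earlier results of these data known. Alternatives were DESeq2 1.42.0, other scalings and filters, a joint fit, a replicate block, thinned counts, a minimum fold change of 2 and each replicate left out. 0 columns with per-sample values were left unused.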

Additional observations from a re-analysis of the deposited data

How the results depend on the processing

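Of 270 tests of the 6 genes under alternatives, 249 kept their direction and their side of the threshold. For *Otx2*, *Fgf5*, *Pou3f1* and *Zic2* every call and direction was kept under each alternative except a tested minimum fold change of 2. Under that minimum 1587, 3554 and 1335 genes were called in the comparisons of KO with WT, KO_PAPC with KO and KO_PAPC with WT, fewer by its construction. Not called under it were, in KO versus WT, *Otx2* (-0.20), *Fgf5* (-0.45), *Pou3f1* (-0.38), *Tcf15* (-0.10) and *Zic2* (-0.28), in KO_PAPC versus KO *Otx2* (0.74) and *Tcf15* (0.090), and in KO_PAPC versus WT *Otx2* (0.54), *Fgf5* (1.01) and *Zic2* (0.96). *Tcf15* changed most: -0.11 and not called in KO versus WT with DESeq2, -0.077 in KO_PAPC versus KO with library totals, and, in KO_PAPC versus WT, -0.18 with library totals, 0.0011 with DESeq2, and -0.085 to 0.021 when replicates were left out; in KO versus WT the latter gave -0.18 to -0.069. The cause was not tested. *Lef1* in KO versus WT lay between -0.018 and 0.0030 when replicates were left out. Leaving out replicates gave 12382 to 12820, 13785 to 14137 and 11208 to 11654 called genes.

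With TMM-scaled in place of library-total CPM, WT, KO and KO_PAPC levels were 209.97, 181 and 306 CPM for *Otx2*, 33.4, 24.1 and 67.8 for *Fgf5*, 24.1, 23.6 and 105 for *Lef1* and 147, 119.5 and 287 for *Zic2*, and in KO_PAPC 82.7 for *Pou3f1*. *Tcf15* was then at 133 CPM in KO and 144 in KO_PAPC. Deviations of libraries with the same replicate number correlated between -0.0779 and 0.133, with the highest value for replicate 1 of KO_PAPC and WT. With the replicate numbers as a block, 5, 6 and 5 of the 6 genes were called in the 3 comparisons, as without it. The edgeR adjusted p of *Tcf15* in KO versus WT was then 0.0212. In KO_PAPC versus WT the block lowered the edgeR adjusted p of all 5 called genes, for *Otx2* from 4.15e-14 to 4.07e-25. It raised that of *Otx2* to 5.46e-06 in KO versus WT and to 1.85e-17 in KO_PAPC versus KO. Whether libraries of the same replicate number shared a batch was not tested. Of the list counts, 824 stayed within 1.5 times their value and 76 did not. Of the list medians, 378 stayed within the spread between libraries and 72 did not. Depth limits *Pou3f1* most, where counting alone gives an error of 4.38% per KO library.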
